A study of Mus musculus with 3 samples.

Results

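Fibroblasts have no gene that marks them alone, so they are recognised by sets of surface and matrix markers. The 10 markers described here are Dpt, Vim, Thy1, Pdpn, Cd34, Ly6a, Fap, Dpp4, Nt5e and Pi16. The set was listed by gene symbol, with earlier results of these data known. They were looked up among 19938 named genes, and 9 of the 10 had a value. For Ly6a, which encodes the stem and progenitor surface antigen Sca-1, no probe set was named by the platform annotation, and it was not analysed here. Each of the other 9 was read by 1 probe set.

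Transcripts of 3 cultured lines of FSP1-positive fibroblasts from the mouse forestomach were read on Affymetrix Mouse Gene 1.0 ST arrays, a single array for each line. The first line was labelled as a conditional knockout (cKO) of both Tgfbr2, the type II TGF-beta receptor gene, and Smad4, the gene of the SMAD protein common to TGF-beta and BMP signaling, and came from normal forestomach. The second was labelled Tgfbr2 cKO and was derived from a forestomach squamous cell carcinoma, and the third was wild type from normal forestomach. All were grown in medium with 10% fetal bovine serum and taken at passages 4 to 6, from mice described as mixed C57BL6 and BALBc, male or female, with no strain, sex or age given per line. The Cre driver of the knockouts is not given in the sources used here. Genotype and tissue of origin therefore differ together between Tgfbr2 cKO and each of the other lines.

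With 1 array per group no spread between replicates can be had, so no difference has a test or an error, and precision is limited by how few arrays there are. Levels are log2 signals, on which a difference of 1 is 2-fold, and they are compared between arrays for a given gene and never between genes. A gene was compared if its highest array reached 6.63, the median of all deposited values, and it was called different at 2-fold. Among 11808 genes compared, 1.22% were at least 2-fold higher and 2.18% lower in the Tgfbr2/Smad4 cKO array than in wild type. Against Tgfbr2 cKO the shares were 1.32% and 2.25%, and for Tgfbr2 cKO minus wild type 0.0254% and 0.00847%. List counts below stand beside these shares, and 0 past 2-fold in a short list is not read as a result. The targeted genes hardly differed. Tgfbr2 had 10.29 in the Tgfbr2/Smad4 cKO array, 10.25 in the Tgfbr2 cKO array and 10.25 in the wild-type array, and Smad4 had 11.04, 11.06 and 11.06 in the same order, each read over the whole transcript, so neither checks the labels. Xist, expressed from the inactive X chromosome, had 9.44 in the Tgfbr2/Smad4 cKO array, 5.35 in the Tgfbr2 cKO array and 5.33 in the wild-type array, and Y-linked Eif2s3y had 5.01, 10.00 and 10.12. Sex pattern thus differs together with genotype in each comparison of the Tgfbr2/Smad4 cKO line.

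As background, Dpt encodes dermatopontin, a small matrix protein that binds decorin and collagen and helps fibrils assemble, and Vim encodes vimentin, the main intermediate filament of mesenchymal cells. Thy1 (CD90), Pdpn (podoplanin) and Cd34 are surface glycoproteins used to sort fibroblast populations, although T cells, lymphatic endothelium and blood vessel endothelium can carry one or another of them. Fap, Dpp4 (CD26) and Nt5e (CD73) are surface enzymes. Fap and Dpp4 are related prolyl peptidases, and Nt5e makes adenosine from AMP. Pi16 (peptidase inhibitor 16) together with Dpp4 and Cd34 marks a population of adventitial fibroblasts in mouse tissues.

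Of 30 other fibroblast and mesenchymal markers, 29 had signals at or above the median in each array. So did 12 of 12 contractile genes. Of 12 smooth muscle and pericyte markers it was 8 in the Tgfbr2/Smad4 cKO array, 10 in the Tgfbr2 cKO array and 9 in the wild-type array. Of all 19938 genes, 11808 reached the median in at least 1 array, so these counts do not single out fibroblasts. S100a4, which encodes FSP1, the protein the cells were selected for, had 12.71 in the Tgfbr2/Smad4 cKO array, 13.16 in the Tgfbr2 cKO array and 13.18 in the wild-type array. Among the 9 markers of the set, Vim, Thy1, Pdpn and Cd34 were at or above the median in each array. Fap was so in both knockout arrays, Dpt in the Tgfbr2/Smad4 cKO array, and Dpp4, Nt5e and Pi16 in none. The deposited table gives no detection call, so a signal below the median is not evidence of absence.

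**Figure D1:**
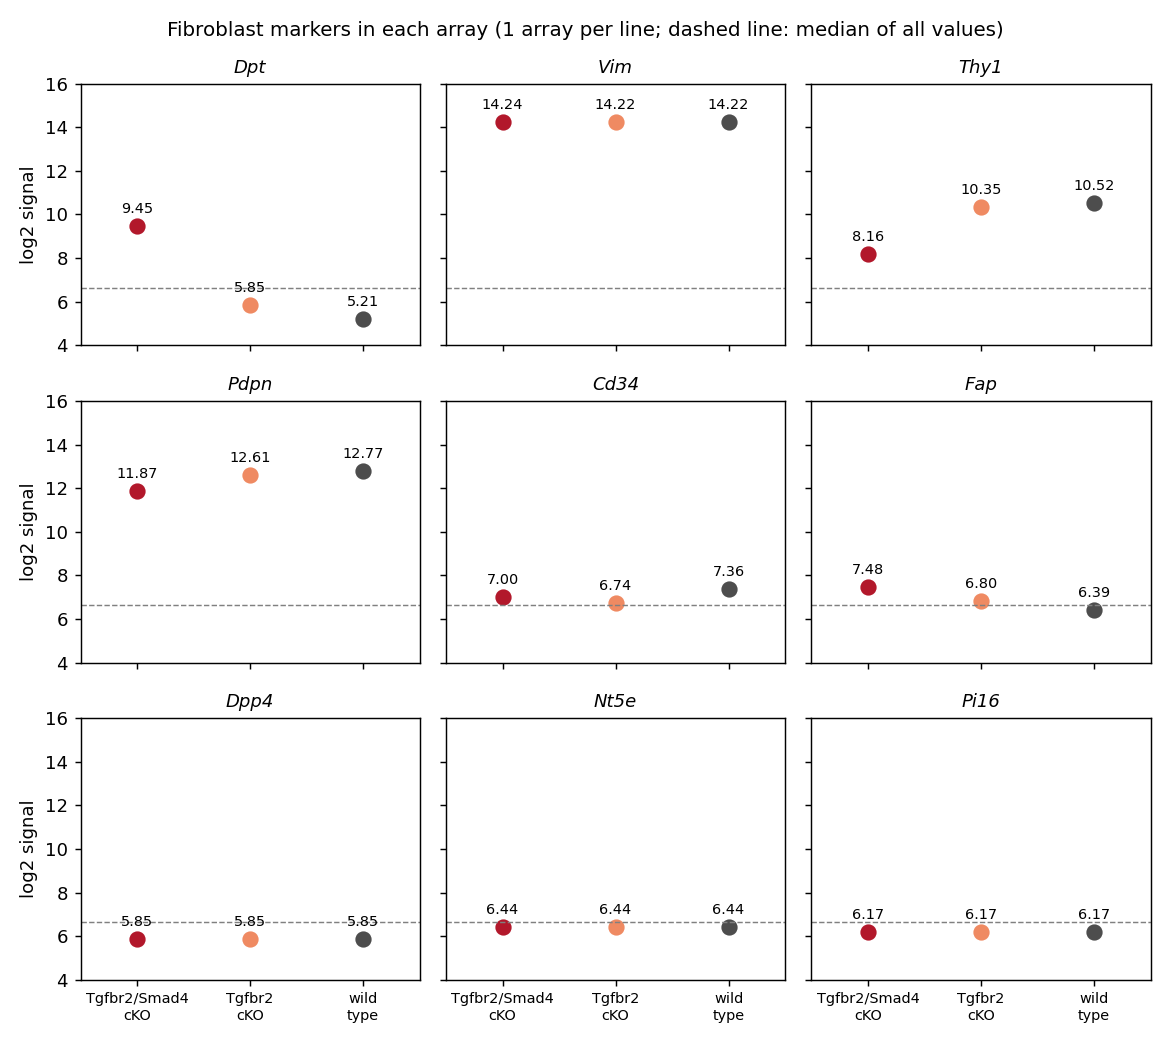
Log2 signal (y axis, the same in each panel) of the 9 measured markers in the Tgfbr2/Smad4 cKO, Tgfbr2 cKO and wild-type arrays (x axis), 1 point per array. The dashed line is the median of all values, 6.63. Dpt stands at 9.45 in the Tgfbr2/Smad4 cKO array and under the line in both others, Thy1 is lowest in that array at 8.16, and Dpp4, Nt5e and Pi16 have the same value in all 3 arrays.

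Dpt had the widest range of the set. Its log2 signal was 9.45 in the Tgfbr2/Smad4 cKO array, 5.85 in the Tgfbr2 cKO array and 5.21 in the wild-type array. On the linear scale these were signals of 700.4, 57.6 and 37.0 in the same order. Dpt thus stood above the median signal in the Tgfbr2/Smad4 cKO array and below it in both others, and it entered the comparison through that array. The Tgfbr2/Smad4 cKO array was higher than wild type by 4.24 on the log2 scale, an 18.9-fold difference, and higher than the Tgfbr2 cKO array by 3.60. With 32 added to each linear signal these differences were 3.41 and 3.03. Among 11808 genes compared, 2 were at least as much higher than wild type, Dpt included. The Tgfbr2 cKO array was higher than wild type by 0.64, a 1.56-fold difference that 18 genes reached or passed, and with the same offset that difference was 0.38. Both of those values lay below the median. In bulk RNA such as this, a difference in the share of cells that carry a transcript and one in its amount per cell cannot be told apart.

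The Dpt promoter window is shown because Dpt differed most, and the Pdpn window because Pdpn, of the markers that were lower in the Tgfbr2/Smad4 cKO array and have a window, differed most. RefSeq's promoter table, on build GRCm38.p6, held 7 of the 10 markers. Both windows shown run from 250 bases before to 50 bases after the annotated gene start. Capitals mark the TATA-type motif TATAAA and the E-box CANNTG, and the strands shown are the sense strands of the genes. Dpt lies at chr1:164796413-164796712 on the plus strand and Pdpn at chr4:143299515-143299814 on the minus strand.
Dpt: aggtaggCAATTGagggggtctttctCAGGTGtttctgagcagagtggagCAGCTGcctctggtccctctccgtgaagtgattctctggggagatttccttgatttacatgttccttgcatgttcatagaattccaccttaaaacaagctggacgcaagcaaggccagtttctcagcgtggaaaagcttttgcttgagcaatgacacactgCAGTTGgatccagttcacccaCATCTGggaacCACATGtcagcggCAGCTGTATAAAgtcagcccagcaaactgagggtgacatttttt
Pdpn: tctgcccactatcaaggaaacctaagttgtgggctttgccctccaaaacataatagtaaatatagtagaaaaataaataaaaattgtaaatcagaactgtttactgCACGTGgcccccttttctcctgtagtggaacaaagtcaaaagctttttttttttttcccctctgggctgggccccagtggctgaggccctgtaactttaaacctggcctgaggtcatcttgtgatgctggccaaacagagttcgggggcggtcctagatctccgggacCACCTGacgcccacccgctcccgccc
The Dpt window held 7 E-boxes and 1 TATAAA, which begins 12 bases after the annotated start and directly follows an E-box without sharing letters with it. The Pdpn window held 2 E-boxes and no TATAAA. Over the 32851 windows of 300 bases in the table, 72.3% held at least 1 CANNTG and 13.6% held TATAAA on either strand. CAGAC, the core of a SMAD-binding element, was searched on both strands and was in neither window, against 49.6% of all windows, and the AP-1 motif TGANTCA was in neither, against 7.81%. These are matches of letters in a window and say nothing of binding.

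Vim was the steadiest of the markers above the median. It had 14.24 in the Tgfbr2/Smad4 cKO array, 14.22 in the Tgfbr2 cKO array and exactly the same deposited value, 14.22, in the wild-type array. The largest difference was 0.02, or 1.01-fold. Equal values in the Tgfbr2 cKO and wild-type arrays were common, at 55.1% of the genes compared, and how they arose is not given. Of 12 other intermediate filament genes and linkers of the cytoskeleton compared, 4 were at least 2-fold lower and 0 higher in the Tgfbr2/Smad4 cKO array than in wild type, with a median of -0.29 beside 0 over all genes compared. These 4 were the muscle filament gene Des at -2.06, the keratin gene Krt19 at -1.89, nestin (Nes) at -1.45 and the nuclear lamin gene Lmnb1 at -1.35, while the linker gene Dst and the filament gene Synm had equal values in the 3 arrays.

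Thy1 was lowest in the Tgfbr2/Smad4 cKO array. Its log2 signal was 8.16 there, 10.35 in the Tgfbr2 cKO array and 10.52 in the wild-type array. It was above the median in each array, and the Tgfbr2 cKO and wild-type values lay close together. The Tgfbr2/Smad4 cKO array differed from wild type by -2.36 (5.13-fold) and from Tgfbr2 cKO by -2.19 (4.56-fold), and 15 of the 11808 genes were at least as much lower against wild type. The Tgfbr2 cKO array differed from wild type by -0.17, a size that 6.27% of genes reached or passed in either direction. T cells also carry Thy1. Their genes Cd3e and Cd3d, like the pan-leukocyte gene Ptprc, were below the median and had equal values in the 3 arrays. Such values neither show a difference nor exclude one, and the part of T cells in the Thy1 difference was not tested. Of 10 smooth muscle and pericyte markers compared, 4 were at least 2-fold lower and 1, Notch3 at 1.18, at least 2-fold higher in the Tgfbr2/Smad4 cKO array than in wild type, and Cspg4 and Kcnj8 had equal values in those arrays. The list's summed linear signal over 12 genes was 6809 in the Tgfbr2/Smad4 cKO array, 29398 in Tgfbr2 cKO and 27562 in wild type. Rgs5 and Abcc9 were below the median in each array. In wild type the largest terms of the sum were Actg2 and Myh11, which differed by -2.85 and -3.37. The median difference from wild type of the 10 compared was -0.59. The part of these markers in the Thy1 difference was not tested.

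Genes linked to Thy1 differed less, as did nearly all genes compared. Only 0.229% of genes reached the size of the Thy1 difference from wild type in either direction. Of 12 integrin, syndecan, kinase and adhesion partners 9 were compared. Of these, 0 were at least 2-fold higher or lower in the Tgfbr2/Smad4 cKO array than in wild type, and the median was -0.09. Over all genes compared 1.22% were higher and 2.18% lower by that size, so 0 of 9 is not particular to these genes. The largest differences in that comparison were -0.89 for the adhesion receptor gene Adgre5 (CD97) and -0.79 for the kinase gene Fyn, which relays Thy1 signals. Against the Tgfbr2 cKO array Adgre5 differed by -1.32.

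Pdpn, a mucin-like protein that links to the cytoskeleton through ERM proteins, followed Thy1 in order but not in size. It had 11.87 in the Tgfbr2/Smad4 cKO array, 12.61 in the Tgfbr2 cKO array and 12.77 in the wild-type array. The Tgfbr2/Smad4 cKO value was the low one, by -0.91 against wild type and -0.75 against Tgfbr2 cKO, under the 2-fold size in both, and 304 genes were at least as much lower than wild type. The difference of Tgfbr2 cKO from wild type was -0.16. Of the 9 partner genes compared, 0 passed 2-fold in any comparison. The ERM gene Msn (moesin) had a difference of -0.57, Cd44, a hyaluronan receptor that binds podoplanin, one of -0.61, and the tetraspanin gene Cd82 one of 0.86, for Tgfbr2/Smad4 cKO minus wild type.

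Mesothelium also carries Pdpn, and the summed signal of mesothelial markers had the same order over the arrays. Of 7 compared out of 10, 5 were at least 2-fold lower and 0 higher in the Tgfbr2/Smad4 cKO array than in wild type, led by the uroplakin gene Upk1b at -3.48, with a median of -1.17. The Tgfbr2 cKO array had 0 higher and 1 lower, Upk3b at -1.07, with a median of -0.67. Their summed linear signal was 970 in the Tgfbr2/Smad4 cKO array, 2006 in the Tgfbr2 cKO array and 2718 in the wild-type array, and Lrrn4, Gpm6a and Muc16 were below the median in each. Their part in the Pdpn values was not tested.

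Cd34 had its lowest value in the Tgfbr2 cKO array. It had 7.005 in the Tgfbr2/Smad4 cKO array, 6.74 in the Tgfbr2 cKO array and 7.36 in the wild-type array, all near the median signal. The Tgfbr2 cKO array differed from wild type by -0.62, or 1.54-fold, and 16 of the 11808 genes were at least as much lower in that narrow comparison. The Tgfbr2/Smad4 cKO array differed from wild type by -0.36, which 1136 genes reached or passed, and from Tgfbr2 cKO by 0.26. None of these was 2-fold. Endothelium also carries Cd34. Of 12 endothelial markers 9 were below the median in each array, among them Pecam1, Cdh5, Kdr, Tek, Tie1 and Emcn with equal values in the 3 arrays. The others were Vwf, equal in the 3 arrays, Flt4 at -0.42 and Flt1 at 0.87 for Tgfbr2/Smad4 cKO minus wild type. Over the 12 the summed linear signal was 1116 in the Tgfbr2/Smad4 cKO array, 1048 in the Tgfbr2 cKO array and 985 in the wild-type array. Their part in the Cd34 values was not tested. The Cd34 relatives were mostly dim: of 6 measured, Podxl, Emcn, Spn and Selplg were below the median in each array. Podxl2 and Cd164 differed by 0.31 and -0.26 for Tgfbr2/Smad4 cKO minus wild type.

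Fap encodes a surface peptidase that is scarce in resting fibroblasts and abundant in activated and tumor-associated ones. Its log2 signal was 7.48 in the Tgfbr2/Smad4 cKO array, 6.80 in the Tgfbr2 cKO array and 6.39 in the wild-type array. Both knockout values were above the median and the wild-type value below it, so Fap entered the comparison through the knockout arrays. The Tgfbr2/Smad4 cKO array was higher than wild type by 1.09, or 2.14-fold, a size that 117 genes reached or passed in that direction. It was higher than the Tgfbr2 cKO array by 0.68. The Tgfbr2 cKO array, from the carcinoma, was higher than wild type by 0.42, or 1.34-fold, and 62 genes were at least as much higher. The Fap difference from wild type lies close to the 2-fold size, and with 32 added to each linear signal it was 0.86, which ends the call.

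Dpp4, the nearest relative of Fap in the set, had 5.85 in each of the 3 arrays. Nt5e had 6.44 in each, and Pi16 had 6.17 in each. These deposited values were identical to every digit, and all lay below the median, so none of the 3 genes entered the comparison. Equal values were common in the table. Of the genes below the level filter, 70.0% were equal in all 3 arrays, and of the genes above it, 32.7%. How equal values arose is not given in the sources used here, so for these 3 markers the arrays neither show a difference nor exclude one.

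Of 9 compared out of 12 prolyl peptidases and partners of Dpp4, 0 passed 2-fold in any comparison, and the 2 largest differences for Tgfbr2/Smad4 cKO minus wild type were 0.25 for the caveolin gene Cav1 and 0.24 for Cxcl12, a chemokine that Dpp4 cleaves. Of 9 compared out of 18 genes that make, break down, carry or sense extracellular nucleotides and adenosine, 0 passed 2-fold in any comparison. In the Tgfbr2/Smad4 cKO array 0 were higher than in wild type, 4 were lower and 5 were equal, with a median of 0. The largest differences were -0.55 for the ATP-release channel gene Panx1 and -0.52 for the ATP receptor gene P2rx7. Adora1, Adora2a, Adora2b and Adora3, the adenosine receptor genes, had no value. Ly6a had no value, and its close relatives Ly6c1 and Ly6c2 had none either. In the wider Ly6 and urokinase receptor family 11 genes were compared. In the Tgfbr2/Smad4 cKO array 1 was at least 2-fold higher than wild type, the complement inhibitor gene Cd59a at 1.03. The urokinase receptor gene Plaur, at -1.29, was the 1 lower by that size. With 1 gene on each side, nothing is read from these counts.

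Counted as a set, 0 of the 6 markers compared passed 2-fold in either direction in the Tgfbr2 cKO array than in wild type, where 0.0254% of all genes compared were higher and 0.00847% lower. In the Tgfbr2/Smad4 cKO array, 2 were at least 2-fold higher than wild type, Dpt and Fap, where 1.22% of genes were, and 1 was lower, Thy1, where 2.18% of genes were. Against the Tgfbr2 cKO array, 1 was higher, Dpt, beside 1.32% of genes, and 1 lower, Thy1, beside 2.25%. The comparisons share arrays, so they are not separate evidence. Dpt entered through its high array alone, and Fap through the knockout arrays, where it was higher than in wild type. Both calls of higher against wild type thus fall on markers whose wild-type value was below the filter. With 6 markers and 1 array per line nothing is read from these shares.

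**Figure D2:**
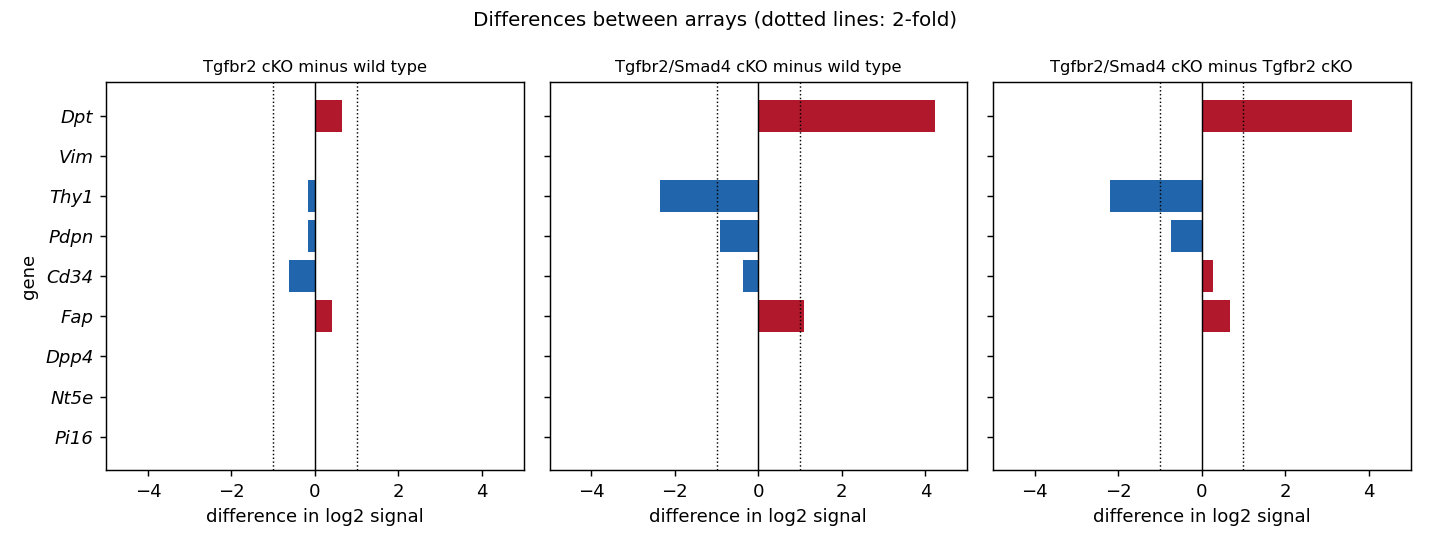
Difference in log2 signal (x axis) for each measured marker (y axis) in the 3 comparisons, with dotted lines at 2-fold, red for higher and blue for lower in the first-named line. Dpt reaches 4.24 and Thy1 -2.36 for Tgfbr2/Smad4 cKO minus wild type, while no bar passes 2-fold for Tgfbr2 cKO minus wild type.

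The width of each comparison frames these values. Over the 11808 genes the log2 differences had an SD of 0.095 for Tgfbr2 cKO minus wild type, 0.39 for Tgfbr2/Smad4 cKO minus wild type and 0.40 for Tgfbr2/Smad4 cKO minus Tgfbr2 cKO. This is a spread over genes and not an error of a gene. A difference of the size seen for Cd34 in the Tgfbr2 cKO array was therefore rarer among genes, at 0.33% in either direction, than the larger Pdpn difference in the Tgfbr2/Smad4 cKO array, at 4.07%. Exactly equal values enter these SDs and shares, and how they arose is not given. They made up 55.1% of genes for Tgfbr2 cKO minus wild type. For the Tgfbr2/Smad4 cKO array they were 36.7% against wild type and 36.1% against Tgfbr2 cKO.

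**Figure D3:**
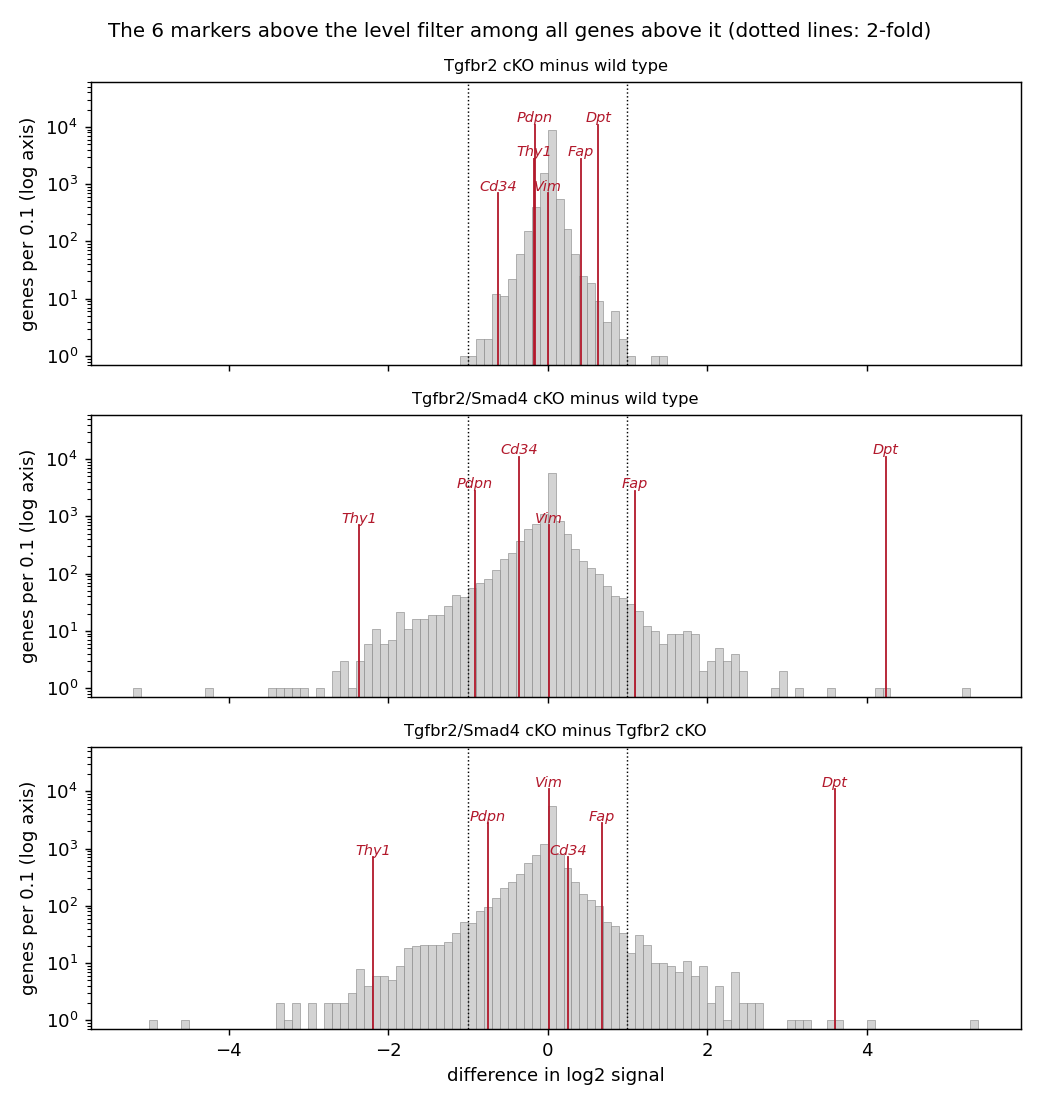
Number of genes per bin of 0.1 (y axis, log scale) by difference in log2 signal (x axis) for the 11808 genes compared, with red lines at the 6 markers above the level filter and dotted lines at 2-fold. Line heights only separate the names. Dpt lies at the far right of both lower panels and Thy1 toward the left, while in the top panel Cd34 at -0.62 and Dpt at 0.64 lie in the thin edges of a narrow distribution.

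The other fibroblast markers were mostly a little higher in the Tgfbr2/Smad4 cKO line. Of 29 compared with wild type, 6 were at least 2-fold higher, 0 were at least 2-fold lower, and 23 were above 0, with a median of 0.25 beside 0 over all genes. The 6 were the TGF-beta co-receptor gene Eng at 2.20, the collagen VI genes Col6a1 and Col6a2 at 1.81 and 1.38, the PDGF receptor gene Pdgfra at 1.40, the proteoglycan gene Lum at 1.21 and the procollagen processing gene Pcolce at 1.12. Against Tgfbr2 cKO 6 were higher by that size and 0 lower, and the median was 0.22. For Tgfbr2 cKO minus wild type 0 passed 2-fold in either direction and the median was 0.01, with the largest differences at -0.61 for the transcription factor gene Twist2 and 0.51 for Eng. Dpt and Fap thus lay on the side that most of this list took, and Thy1 and Pdpn on the other.

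Matrix partners of dermatopontin leaned the same way as Dpt but by far less. Of 15 compared, 3 were at least 2-fold higher in the Tgfbr2/Smad4 cKO array than in wild type and 0 lower, with a median of 0.29. These were the small leucine-rich proteoglycan genes Ogn at 1.60, Lum at 1.21 and Fmod at 1.06. Decorin (Dcn), the proteoglycan that dermatopontin binds, had 13.95 in the Tgfbr2/Smad4 cKO array, 13.83 in the Tgfbr2 cKO array and 13.79 in the wild-type array, a difference from wild type of 0.16. Tgfb1, whose product dermatopontin also binds, differed by -0.03.

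Genes reported in mouse tissues alongside Pi16, Dpp4 and Cd34 leaned the other way. Of 16 compared out of 22, 3 were at least 2-fold lower and 1 at least 2-fold higher in the Tgfbr2/Smad4 cKO array than in wild type, with a median of -0.17. The lower ones were the complement regulator gene Cd55 at -1.98, the fibril-associated collagen gene Col14a1 at -1.30 and the hexosamine enzyme gene Gfpt2 at -1.24, and the higher one was the ligand gene Wnt2 at 1.76. Against Tgfbr2 cKO, 4 were lower, now with the procollagen enhancer gene Pcolce2 at -1.20, and 1 higher. For Tgfbr2 cKO minus wild type 0 passed 2-fold, the median was -0.01, and the largest differences were 0.71 for Col14a1 and -0.67 for Sema3c. Clec3b, Efhd1, Smpd3 and Penk were below the median in each array, as Pi16 and Dpp4 were.

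**Figure D4:**
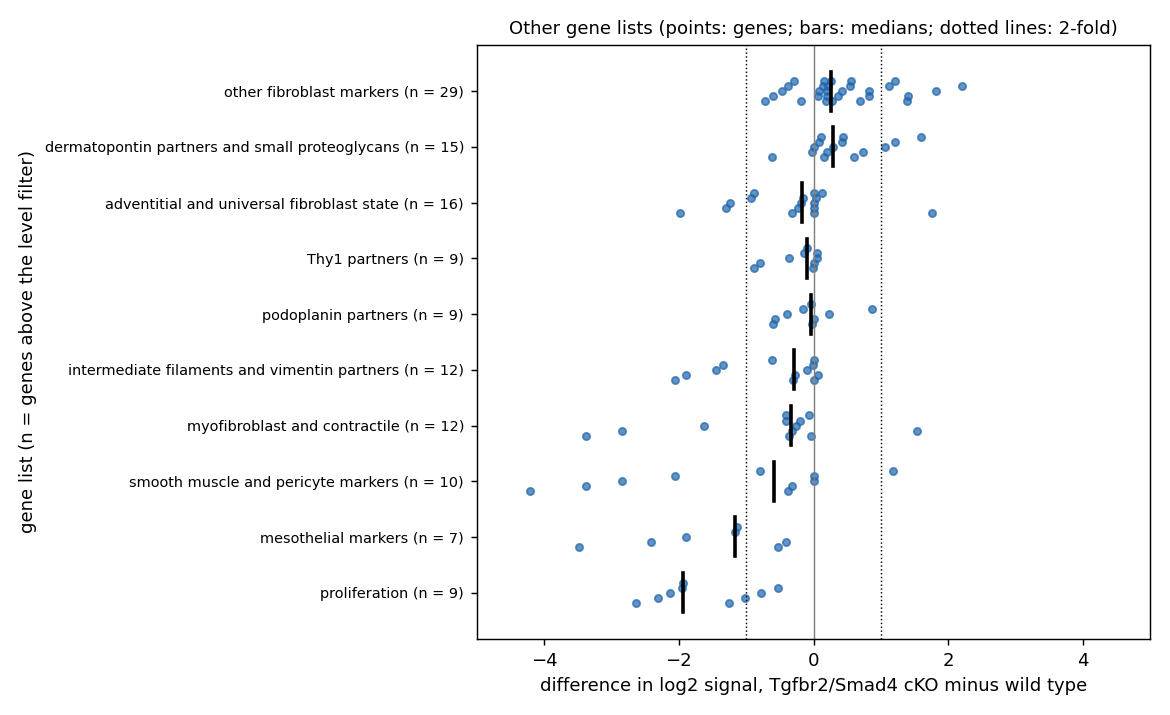
Difference in log2 signal for Tgfbr2/Smad4 cKO minus wild type (x axis) for the genes of 10 lists (y axis), with a point per gene above the level filter, a bar at each list's median and dotted lines at 2-fold. Several lists share genes. Other fibroblast markers and dermatopontin partners have medians of 0.25 and 0.29, and mesothelial and proliferation genes have medians of -1.17 and -1.94.

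Contractile and growth genes differed in the same array. Of 12 contractile genes, 3 were at least 2-fold lower and 1 higher in the Tgfbr2/Smad4 cKO array than in wild type. Their median was -0.34. The lower ones were Myh11 at -3.37, Actg2 at -2.85 and Cnn1 at -1.62, and the higher one was Itga11 at 1.54. Acta2, the actin gene that marks myofibroblasts, differed by -0.20. Of 9 proliferation genes 7 were at least 2-fold lower and 0 higher, beside 2.18% and 1.22% of all genes compared. The marker differences in this line therefore stand beside differences in growth state, contractile state and sex pattern, whose parts were not tested. Of 13 epithelial markers 9 were below the median in each array, Epcam, Cdh1, Krt5 and Krt14 among them. The others were Dsp, Krt8, Krt18 and Krt19, and Krt19 had 6.93 in the Tgfbr2/Smad4 cKO array, 9.25 in the Tgfbr2 cKO array and 8.82 in the wild-type array. The summed linear signal over the 13 genes was 948 in the Tgfbr2/Smad4 cKO array, 1473 in the Tgfbr2 cKO array and 1393 in the wild-type array. Leukocyte markers summed to 1085, 1685 and 1306 over 13 genes in the same order, with Ptprc, Adgre1 and Itgam below the median in each array and Lyz2 highest in Tgfbr2 cKO at 9.52. Adipocyte markers summed to 719, 654 and 689 over 7 genes, and glial and neural markers to 1082, 1532 and 1522 over 6.

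Dpt, Fap and Thy1 spanned at least 2-fold over the arrays, and for these the genes with the most similar course were found. Likeness was the Euclidean distance between log2 profiles centred on their own mean, over 3 arrays and 10554 genes with a single probe set and an established symbol, and a small distance over so few arrays says nothing of shared function. For Dpt the nearest were Xist at a distance of 0.46, the interferon-inducible gene Ifi202b at 0.52 and the secreted peptide gene Ecrg4 at 0.79. For Tgfbr2 cKO minus wild type they differed by 0.02, 0.02 and -0.07, and Dpt by 0.64 between signals below the median. For Thy1 the nearest were the BMP family ligand gene Gdf6 at 0.12, the kinesin gene Kif1a at 0.15 and the receptor phosphatase gene Ptprb at 0.16. For Fap they were Tmem14a at 0.05, the mitochondrial malic enzyme gene Me3 at 0.08 and the actin-binding adaptor gene Afap1l2 at 0.10.

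**Figure D5:**
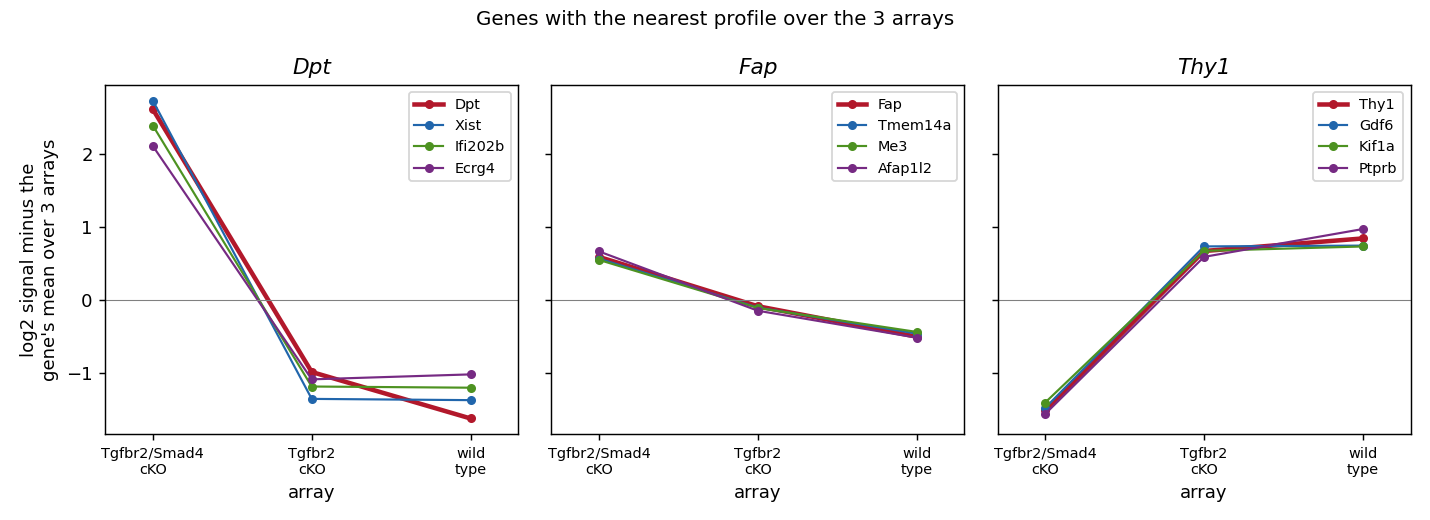
Log2 signal minus each gene's mean over the 3 arrays (y axis) in the Tgfbr2/Smad4 cKO, Tgfbr2 cKO and wild-type arrays (x axis) for Dpt, Fap and Thy1 (thick red lines) and their 3 nearest genes (thin lines). The Fap group declines in steps toward wild type, the Thy1 group is low in the Tgfbr2/Smad4 cKO array, and the Dpt group is high in it.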

How the data were processed

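Transcript levels were measured on 3 arrays, 1 per line. The authors deposited 1 value for each of 35556 probe sets per array, and their range of 2.82 to 15.6 is that of log2 signals, which they were taken to be. The labels name no software, normalization or build. No further scaling was applied, since column medians were within 0.00412 of each other. Probe sets with 1 symbol in the platform annotation (21789) were named, updated through gene IDs with RefSeq's table for GRCm38.p6, and combined as the mean log2 value of each gene. This gave 19938 genes, and 11808 reached the median signal of 6.63 in at least 1 array. The call was a difference of at least 2-fold, and no test was possible.

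The members and gene lists were chosen with earlier results of these data known. All 10 markers were named, and, for markers spanning 2-fold, the 3 nearest profiles. List genes at least 2-fold different, or the 2 most different, were named for some lists. The other lists were given as counts, medians or sums, with only some of these genes named. Alternatives were other normalizations, level filters, probe set rules, size rules and an offset. The counting step was tested on simulated data. R 4.3.3 with limma 3.58.1 gave the loess alternative, and Python 3.11.15 with numpy 2.4.6, pandas 2.3.3 and matplotlib 3.10.9 the rest.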

Additional observations from a re-analysis of the deposited data

How the results depend on the processing

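No paired analysis was possible because each group has 1 array. Across 10 alternatives, 0 of 615 values reversed a called direction, counts of markers included. Only marker and list differences past 2-fold could count as reversed, and counts could not, so the outcome was fixed for most of the 615. Size rules and level filters also leave a marker's difference unchanged. Median centring and quantile and cyclic loess normalization kept each count of markers. Each measured marker has 1 probe set, so the probe set rules could not change its values. Dropping the level filter added only markers with equal values, so it could not change a count. A 1.5-fold size gave 1 marker higher (Dpt, 0.64) and 1 lower (Cd34, -0.62) for Tgfbr2 cKO minus wild type, 2 lower for Tgfbr2/Smad4 cKO minus wild type (Pdpn added, -0.91), and 2 higher and 2 lower for Tgfbr2/Smad4 cKO minus Tgfbr2 cKO (Fap added at 0.68, Pdpn at -0.75). For Tgfbr2/Smad4 cKO minus wild type, 1 marker in place of 2 was higher with a 3-fold size (Fap is at 1.09), with the filter at the 75th percentile, where Fap and Cd34 are not compared, and with 32 added to each linear signal, where Fap was 0.86 and Dpt 3.41. Low signals limit Dpt in the Tgfbr2 cKO and wild-type arrays, and Fap and Cd34.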
